A study of Homo sapiens with 12 samples.

Results

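S100 proteins are small calcium-binding proteins that work mostly as dimers. Calcium binding to their EF hands exposes a surface that holds partner proteins, among them annexins and cytoskeletal motors, and several family members are also released from cells and bind receptors such as RAGE (AGER) and TLR4. Most S100 genes lie in a cluster on chromosome 1 that also holds the genes of the epidermal cornified envelope, while S100P lies apart on chromosome 4. The 10 genes described here are S100A2, S100A4, S100A6, S100A8, S100A9, S100A10, S100A11, S100A14, S100A16 and S100P. They were taken by gene name from a table of 58302 genes, and all 10 were found there.

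RNA was sequenced from 3 established human prostate cell lines of wild-type genotype label, with 4 libraries per line. BPH-1 is an immortalised line from benign prostatic hyperplasia, DU145 comes from a brain metastasis of prostate carcinoma and PC3 from a bone metastasis. No line received a treatment, and all 3 grew in the same medium (DMEM with 10% fetal bovine serum, penicillin and streptomycin). Each state is represented by 1 line, so benign or cancerous origin and the identity of the line cannot be told apart, and nothing in the labels says that the 4 libraries of a line were separate cultures, so p-values measure the spread between libraries only.

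Expression was deposited as FPKM, the fragments counted on a gene scaled to its length and to the depth of the library. Depth, recovered from the steps between low values, ran from 12950664 to 16309560 reads per library. Within a line, the correlation of log2(FPKM + 1) between libraries over 15206 genes with a mean of at least 20 reads was 0.966 to 0.983 in BPH-1, 0.896 to 0.983 in DU145 and 0.956 to 0.987 in PC3. BPH-1 libraries carried the epithelial adhesion gene EPCAM at 57.7 to 63.2 FPKM and the basal keratin KRT5 at 120.2 to 175 FPKM. In PC3, CTNNA1, which is deleted in that line, was at 0.0367 to 0.0719 FPKM. DU145 carried little of the epithelial markers EPCAM (0.166 to 0.573 FPKM) and CDH1 (0.0851 to 0.297 FPKM), although keratins KRT8 and KRT18 were present at 14.7 to 99.2 FPKM. CDH1 was also low in PC3, at 0.427 to 1.415 FPKM against 16.3 to 44.6 in BPH-1. PC3 held EPCAM at 6.92 to 11.1 FPKM and KRT8 and KRT18 at 15.85 to 34.7 FPKM. KRT5 and the basal marker TP63 were at most 0.499 FPKM in both cancer lines. Summed markers of other cell types were low for fibroblasts (0.66 to 3.98 FPKM over 6 genes) and endothelium (0.064 to 2.32 FPKM over 4 genes). The fibroblast markers were uneven in DU145: 6 and 5 of the 6 had over 3 reads in replicates 3 and 4, against 3 in each of replicates 1 and 2. DCN, 1 of them, had 102 and 51 reads in replicates 3 and 4 and 0 in replicates 1 and 2. Myeloid markers were also not evenly spread and are given with S100A8 and S100A9.

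The S100 genes fell into groups with unlike patterns. S100A8, S100A9, S100A2 and S100A14 were lower in both cancer lines than in BPH-1, with S100A14 67.8-fold lower in PC3 and 169.9-fold lower in DU145. In bulk RNA, fewer expressing cells and less RNA per cell cannot be told apart. S100A4 and S100A6 were higher in both cancer lines, by 2.52 to 4.63-fold. S100A16 was higher in PC3, S100A10 was higher in DU145, and S100P was read in PC3 and in some BPH-1 libraries but almost not in DU145. S100A11 was the most abundant of the 10 in every line on the deposited values, and its line means differed least, by at most 1.66-fold. In all, the 10 genes made up 0.417 to 0.649% of the summed FPKM in BPH-1, 0.221 to 0.358% in DU145 and 0.216 to 0.297% in PC3.

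**Figure D1:**
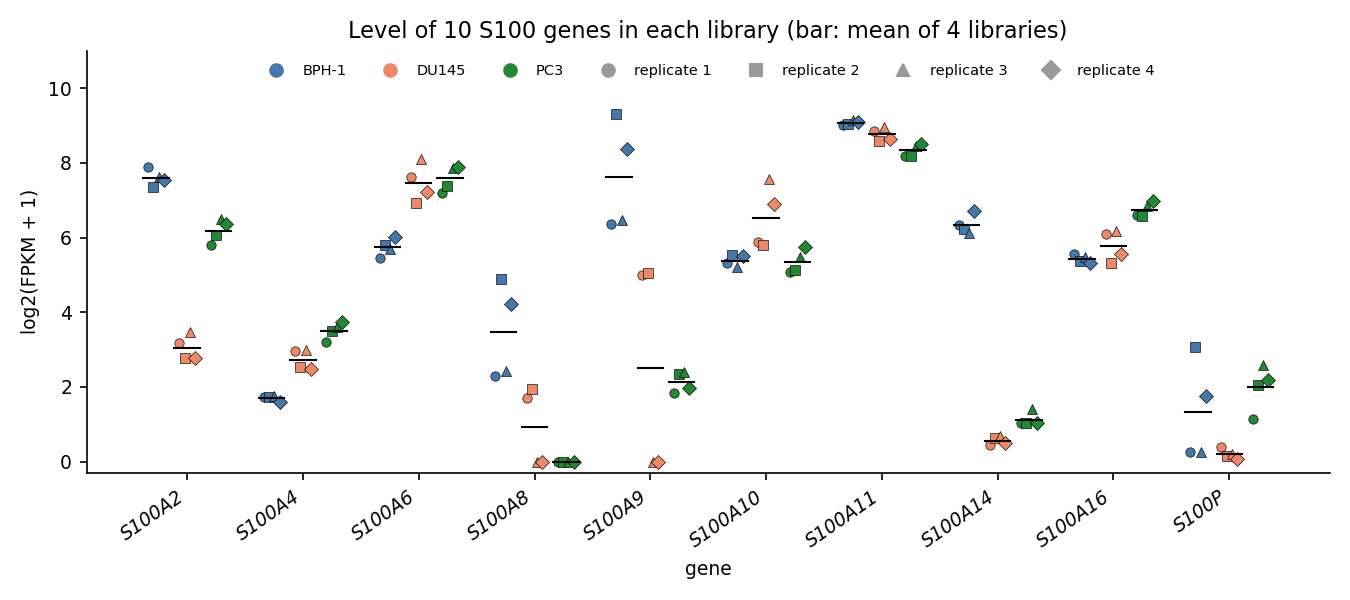
Level of each S100 gene as log2(FPKM + 1) on the vertical axis, by gene on the horizontal axis, for the 4 libraries of BPH-1, DU145 and PC3 (point shapes mark the replicate number, bars the mean of 4 libraries). S100A2 and S100A14 separated BPH-1 from both cancer lines, whereas S100A8, S100A9 and S100P spread widely among the libraries of BPH-1.

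The 250 bases upstream of the annotated starts are shown for 5 of the genes, because they set the genes with the widest spread within BPH-1 (S100A8, S100A9 and S100P) beside S100A6 and S100A10, which differed between lines with less spread in BPH-1. Sequences are from RefSeq on GRCh38.p14, written 5′ to 3′ on the strand of the gene and ending at the base before the start. Capitals mark matches to a TATA box (TATAAA) or a GC box (GGGCGG, or CCGCCC on the other strand). For S100A8, which has 3 annotated starts, the window of the start that lies 29 bases downstream of a TATA box is shown.
S100A8 (chr1:153391074-153391323, minus strand): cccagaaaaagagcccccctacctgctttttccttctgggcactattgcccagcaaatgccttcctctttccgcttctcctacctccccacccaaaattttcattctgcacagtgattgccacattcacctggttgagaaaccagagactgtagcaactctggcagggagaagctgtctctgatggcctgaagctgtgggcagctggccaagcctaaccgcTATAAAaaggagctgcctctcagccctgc
S100A9 (chr1:153357604-153357853, plus strand): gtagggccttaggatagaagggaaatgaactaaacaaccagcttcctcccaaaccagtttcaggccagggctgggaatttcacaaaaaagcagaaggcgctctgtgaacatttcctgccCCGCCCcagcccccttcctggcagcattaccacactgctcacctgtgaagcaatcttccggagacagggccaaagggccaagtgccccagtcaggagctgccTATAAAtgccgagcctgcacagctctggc
S100P (chr4:6693628-6693877, plus strand): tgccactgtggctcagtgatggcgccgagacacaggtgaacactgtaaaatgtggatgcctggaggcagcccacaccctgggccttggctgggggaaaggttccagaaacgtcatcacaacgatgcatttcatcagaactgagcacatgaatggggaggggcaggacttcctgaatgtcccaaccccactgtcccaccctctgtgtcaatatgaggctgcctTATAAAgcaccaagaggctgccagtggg
S100A6 (chr1:153535992-153536241, minus strand): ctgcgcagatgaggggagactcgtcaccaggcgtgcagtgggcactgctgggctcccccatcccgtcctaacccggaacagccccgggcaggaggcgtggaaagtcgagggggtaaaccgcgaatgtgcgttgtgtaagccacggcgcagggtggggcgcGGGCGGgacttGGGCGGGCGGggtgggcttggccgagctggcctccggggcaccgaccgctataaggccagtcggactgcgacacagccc
S100A10 (chr1:151993860-151994109, minus strand): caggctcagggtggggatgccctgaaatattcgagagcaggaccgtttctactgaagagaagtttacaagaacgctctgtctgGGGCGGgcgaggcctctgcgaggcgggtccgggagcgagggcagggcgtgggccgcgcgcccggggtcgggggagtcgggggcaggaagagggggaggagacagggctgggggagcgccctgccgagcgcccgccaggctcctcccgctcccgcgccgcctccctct

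The windows of S100A8, S100A9 and S100P held TATAAA 29, 29 and 28 bases upstream of the start, and the window of S100A4 held it at 31 bases. Only these exact letters were searched, and the windows of S100A6 and S100A14 held the similar TATAAG close to the start. S100A6 held 3 GC boxes, 2 of which overlap, and 24 CpG dinucleotides, and S100A10 held 1 GC box and 24 CpG. S100A9 also held a GC box, 131 bases upstream on the other strand. Of the other 2 windows of S100A8, 1 held TATAAA at 126 bases and 1 held none. Fewer CpG were found in S100A8 (2), S100A9 (4) and S100P (4). Counts were also low in S100A14 (4), S100A4 (7) and the windows of S100A2 (3 and 4) and S100A16 (6 and 1). In these genes the highest BPH-1 library was at most 1.515 times the lowest. A low CpG count was thus not particular to the genes with wide spread. Of 35116 such windows, 10.7% held TATAAA and 42.6% held a GC box on either strand, and the median window held 11 CpG (quartiles 3 and 23). The AP-1 motif TGANTCA, present in 6.57% of the windows, was found in 1 of the 2 windows of S100A2, 52 bases upstream of the start. These matches are letters in the reference and were not measured as binding in these cells.

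S100A8 and S100A9 form calprotectin, a heterodimer abundant in neutrophils and monocytes and also made by stressed squamous epithelium. Both genes lie within the chromosome 1 cluster, S100A9 at 153357854 to 153361027 on the plus strand and S100A8 at 153390032 to 153391188 on the minus strand (GRCh38). S100A9 stood at 80.6, 636.2, 87.2 and 330.5 FPKM in BPH-1 replicates 1 to 4, at 30.7, 31.9, 0 and 0 in DU145, and at 2.54, 4.05, 4.25 and 2.94 in PC3, where 19 to 34 reads were counted. S100A8 stood at 3.91, 28.9, 4.40 and 17.6 FPKM in BPH-1 and at 2.27, 2.89, 0 and 0 in DU145, and no read was counted in PC3. Every BPH-1 library lay above every DU145 and PC3 library for both genes, and BPH-1 replicates 2 and 4 were several times above replicates 1 and 3. The FPKM ratio of S100A9 to S100A8 was 18.8 to 22.1 in the 4 BPH-1 libraries, and 13.5 and 11.1 in DU145 replicates 1 and 2. Its size depends on the exon lengths used.

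Against BPH-1, S100A9 fell 82.3-fold in PC3 (log2 difference of FPKM + 1 of −5.49, SE 0.60, adjusted p = 3.68e-05, limma with Benjamini-Hochberg adjustment over all genes tested) and 18.1-fold in DU145 (−5.12, SE 1.27, adjusted p = 0.00568, limma). S100A8 was at least 82.9-fold lower in PC3, with 3 reads per library as the floor (adjusted p = 0.000304, limma), and 10.6-fold lower in DU145 (adjusted p = 0.00762, limma). In both comparisons S100A8 passed the filter on low reads through BPH-1 alone, as did S100A9 against DU145. Their lower level there followed from the filter and is given, with its p-values, as a description. The level of S100A9 in PC3 relative to DU145 was not distinguishable (log2 difference −0.37, SE 1.19, adjusted p = 0.82, limma). The DU145 libraries lay on both sides of the PC3 range. BPH-1 replicate 2 weighed on these folds. Without it S100A9 was 48.2-fold lower in PC3 and 10.6-fold lower in DU145, and S100A8 at least 52.2-fold and 6.70-fold lower. Without DU145 replicate 2 the folds in DU145 were 27.7 for S100A9 and 18.1 for S100A8. S100A8 was too low in both lines to be tested between PC3 and DU145.

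The libraries with most reads of these 2 genes were also those with most reads of myeloid marker genes. Within BPH-1, however, the summed markers did not follow S100A9. Of 8 markers fixed for myeloid cells, 7 had over 3 reads in each BPH-1 library and in DU145 replicates 1 and 2, with summed levels of 11.6 to 16.3 FPKM in BPH-1 and 12.2 and 13.1 FPKM in those DU145 libraries. Only 1 or 2 of the markers had over 3 reads in DU145 replicates 3 and 4 and in PC3, where the sum was 0.208 to 0.589 FPKM. MPO, the myeloperoxidase of neutrophil granules, was at 0 in 11 libraries and at 0.0254 FPKM in DU145 replicate 2. The pan-leukocyte gene PTPRC was at 1.15 to 1.54 FPKM in BPH-1, at 1.35 and 1.25 in DU145 replicates 1 and 2, and at 0 elsewhere. The part of these reads in the S100A8 and S100A9 results was not tested, and none of the BPH-1 libraries lacked them. In BPH-1 replicates 1 to 4 the markers summed to 14.08, 16.31, 14.01 and 11.64 FPKM, beside S100A9 at 80.6, 636.2, 87.2 and 330.5 FPKM. DU145 replicates 3 and 4 had no read of either gene.

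Some genes of the cluster showed the same split of BPH-1 and others did not. S100A7 (psoriasin), a keratinocyte protein, stood at 5.44, 84.7, 4.57 and 29.2 FPKM in BPH-1 replicates 1 to 4 and at 0 in the 8 other libraries. S100A7A, whose sequence is close to that of S100A7 so that reads may be shared, stood at 0.295, 3.84, 0.268 and 0.647 FPKM in BPH-1. S100A12, which granulocytes also make, did not follow: it was at 1.49 to 2.84 FPKM in BPH-1, at 0.834 and 1.18 in DU145 replicates 1 and 2 and at 0 elsewhere, with 7 to 23 reads where it was present. Between the first and the last S100 gene of chromosome 1 lie 46 other protein-coding genes, of which 9 passed the filter on low reads. All 9 passed it through BPH-1 alone against PC3, as did all but TCHH and IVL against DU145, so their lower level in the cancer lines followed from the filter and is given as a description. They are genes of squamous differentiation. The highest were SPRR1B, SPRR1A and IVL, which encode cornified envelope precursors. SPRR1B stood at 6.90, 40.7, 6.13 and 59.8 FPKM in BPH-1 replicates 1 to 4 and at 0 in every other library, and IVL, or involucrin, at 6.36, 41.8, 5.72 and 39.7 FPKM. Like S100A8 and S100A9, they were high in replicates 2 and 4. TCHH and FLG, 2 others of the 9, did not follow the split, at 2.96, 2.19, 2.25 and 2.63 FPKM and at 0.514, 0.442, 0.354 and 0.578 FPKM in BPH-1 replicates 1 to 4.

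**Figure D2:**
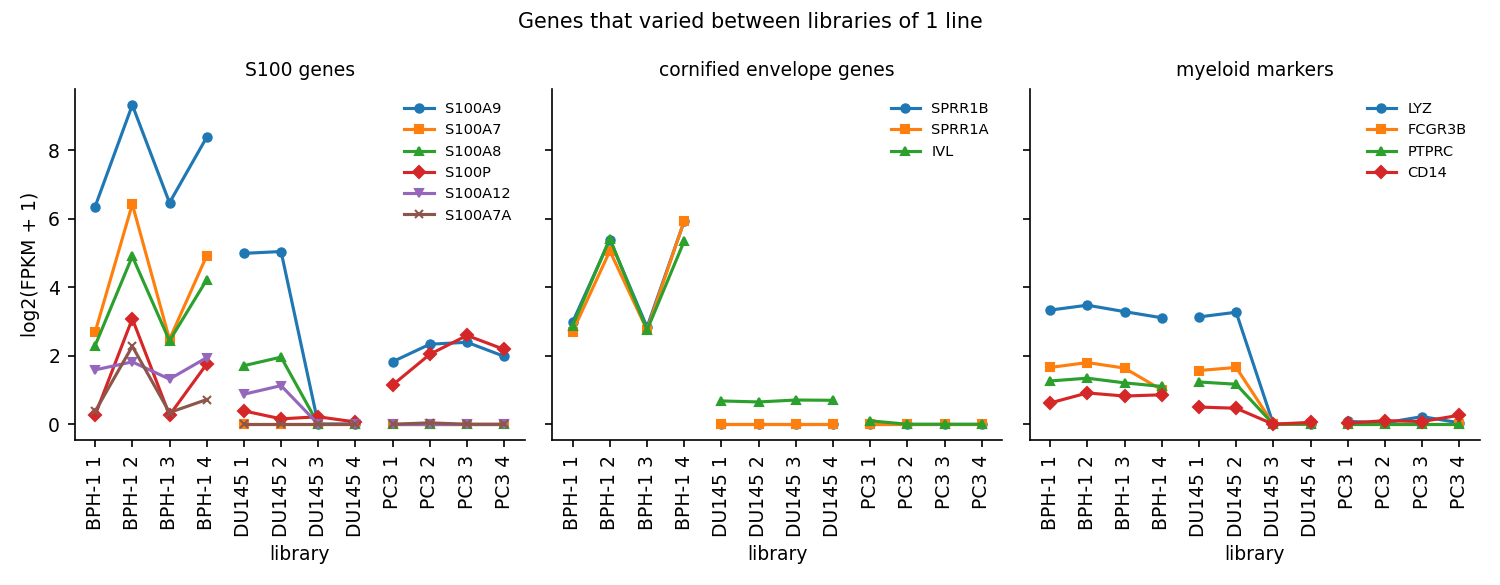
Levels as log2(FPKM + 1) on the vertical axis in each of the 12 libraries on the horizontal axis, for 6 S100 genes, 3 cornified envelope genes and 4 myeloid markers. The 6 S100 genes, SPRR1A, SPRR1B and IVL were higher in replicates 2 and 4 than in 1 and 3 of BPH-1, S100A12 by little. The 8 myeloid markers, 4 of them plotted, summed to 11.6 to 16.3 FPKM in BPH-1 and 12.2 and 13.1 FPKM in DU145 replicates 1 and 2.

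S100P, which binds ezrin and is known as a secreted ligand of RAGE, lies at chromosome 4, 6693069 to 6697170. It had 0.204, 7.45, 0.202 and 2.37 FPKM in BPH-1 replicates 1 to 4, that is 5, 181, 5 and 59 reads. In PC3 it had 1.21, 3.12, 5.03 and 3.54 FPKM, and in DU145 1 to 8 reads per library. All 4 PC3 libraries lay above all DU145 libraries, whereas the PC3 and BPH-1 ranges overlapped. S100P was higher in PC3 than in DU145 (log2 difference of FPKM + 1 of 1.78, SE 0.27, adjusted p = 0.000565, limma). It passed the filter on low reads there through PC3 alone, so this direction followed from the filter. The difference between PC3 and BPH-1 was within the spread of BPH-1 (0.65, SE 0.60, adjusted p = 0.362, limma). BPH-1 replicate 2 decided that last call, since without it the difference was 1.23 with an adjusted p of 0.038 (limma). In that fit too S100P passed the filter through PC3 alone, so the direction and p-value are given as a description. S100P was too low for a test of DU145 against BPH-1. Among genes with a mean of at least 50 reads in a line, a highest library at least 4 times the lowest was seen in 2.87% of 12912 genes of BPH-1, and S100A8, S100A9 and S100P were 3 of them, while 18.2% of 12634 genes of DU145 did so, among them S100A9, and 8.96% of 11850 genes of PC3, among them S100P.

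S100A2, S100A14 and S100A16 are genes of epithelia. S100A2 is a mostly nuclear S100 protein of basal epithelial cells. It stood at 237, 164, 195 and 184 FPKM in BPH-1 replicates 1 to 4, at 7.96, 5.78, 10.03 and 5.87 in DU145, and at 55.2, 66.6, 88.4 and 80.8 in PC3. The 3 lines did not overlap. S100A2 fell 26.3-fold in DU145 (−4.56, SE 0.20, adjusted p = 1.88e-07, limma) and 2.68-fold in PC3 (−1.42, SE 0.17, adjusted p = 5.97e-05, limma), so PC3 held 9.82 times the DU145 level (3.14, SE 0.21, adjusted p = 4.07e-06, limma).

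S100A14 stood at 79.1, 74.3, 68.3 and 103.5 FPKM in BPH-1, with 2880 to 4386 reads. In DU145 it was at 0.364, 0.542, 0.597 and 0.412 FPKM (15 to 25 reads) and in PC3 at 1.05, 1.05, 1.65 and 1.05 FPKM (37 to 62 reads). Both cancer lines were thus far below BPH-1, with log2 differences of −5.78 for DU145 (SE 0.17, adjusted p = 2.47e-08, limma) and −5.22 for PC3 (SE 0.15, adjusted p = 1.63e-08, limma), and the small level left was 2.51 times higher in PC3 than in DU145 (0.57, SE 0.11, adjusted p = 0.00295, limma).

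S100A16, the gene beside S100A14, was highest in PC3. Its level was 46.4, 40.2, 43.2 and 38.9 FPKM in BPH-1, 66.9, 38.6, 70.7 and 45.8 FPKM in DU145, and 97.0, 93.7, 114 and 124 FPKM in PC3. PC3 lay above both other lines without overlap, 2.54-fold above BPH-1 (1.32, SE 0.12, adjusted p = 1e-05, limma) and 1.93-fold above DU145 (0.97, SE 0.21, adjusted p = 0.00445, limma). DU145 and BPH-1 overlapped (0.35, SE 0.21, adjusted p = 0.167, limma). The last comparison rose past the threshold without DU145 replicate 2 (0.50, adjusted p = 0.0357, limma) and turned to −0.19 when a trend with GC content was divided out (adjusted p = 0.245, limma).

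S100A4 and S100A6 lie on either side of S100A5. S100A4 binds non-muscle myosin (MYH9) and is a gene of motile and mesenchymal cells, and S100A6, or calcyclin, binds CACYBP. S100A4 was low in BPH-1, at 2.33, 2.32, 2.41 and 2.01 FPKM (63 to 75 reads), and stood at 6.74, 4.74, 6.88 and 4.54 FPKM in DU145 and at 8.13, 10.3, 11.2 and 12.4 FPKM in PC3. The order BPH-1, DU145, PC3 held without overlap. S100A4 rose 4.63-fold in PC3 (1.80, SE 0.14, adjusted p = 3.47e-06, limma) and 2.52-fold in DU145 (1.02, SE 0.17, adjusted p = 0.000573, limma), and PC3 was 1.83-fold above DU145 (0.78, SE 0.18, adjusted p = 0.0068, limma).

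S100A6 had 42.8, 55.0, 50.5 and 64.1 FPKM in BPH-1, 196, 119.8, 273 and 148 FPKM in DU145, and 146, 164, 232 and 236 FPKM in PC3. DU145 and PC3 both lay above BPH-1 and overlapped with each other. S100A6 rose 3.67-fold in PC3 (1.84, SE 0.19, adjusted p = 2.28e-05, limma) and 3.47-fold in DU145 (1.72, SE 0.25, adjusted p = 0.00023, limma), and the 2 cancer lines were not told apart (0.12, SE 0.27, adjusted p = 0.754, limma). An antisense gene, BX470102.1, shares 23 of the 971 merged exon bases of S100A6, and the strand setting of the counting is not given in the sources used here. S100A3, whose locus lies within that of S100A4 without shared exons, also rose in both lines: its mean was 3.50 times the BPH-1 level in PC3 (1.48, adjusted p = 7.46e-06, limma) and 3.40 times in DU145 (1.43, adjusted p = 7.43e-05, limma).

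S100A10 and S100A11 are annexin-binding members. S100A10 forms a tetramer with annexin A2 (ANXA2) that binds plasminogen and AHNAK, and it does not need calcium to do so. S100A11 binds annexin A1 (ANXA1). S100A10 stood at 38.7, 45.2, 35.8 and 44.1 FPKM in BPH-1, at 58.0, 54.9, 187 and 118 in DU145, and at 33.1, 33.7, 43.8 and 52.3 in PC3. All DU145 libraries lay above those of the other lines, with replicates 3 and 4 well above replicates 1 and 2. Replicates 3 and 4 were also the DU145 libraries with more fibroblast markers read, and a link was not tested. S100A10 was 2.56-fold higher in DU145 than in BPH-1 (1.15, SE 0.36, adjusted p = 0.0171, limma) and 2.57-fold lower in PC3 than in DU145 (−1.18, SE 0.38, adjusted p = 0.029, limma), whereas PC3 and BPH-1 differed by less than their spread (−0.03, SE 0.16, adjusted p = 0.889, limma). The first of these was lost when a GC trend was divided out (0.79, adjusted p = 0.0765, limma). The second was lost without DU145 replicate 4 (adjusted p = 0.073) or without PC3 replicate 1, 2 or 3 (adjusted p = 0.0736, 0.0736 and 0.0548, limma). It was also lost with no filter (adjusted p = 0.0617), with upper-quartile scaling (adjusted p = 0.0595) and with the GC trend divided out (adjusted p = 0.0522, limma).

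ANXA2 itself did not pass the test in any comparison, with means of 54.2 FPKM in BPH-1, 52.4 in DU145 and 66.1 in PC3. The FPKM ratio of S100A10 to ANXA2 was 0.688 to 0.849 in BPH-1 and 0.554 to 0.711 in PC3, and 0.904, 1.08, 3.72 and 2.68 in DU145 replicates 1 to 4. A ratio between genes depends on the exon lengths used, so it compares lines and not the amounts of these RNAs. In BPH-1 replicate 1, 1310 reads of S100A10 stood beside 11755 of ANXA2.

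S100A11 stood at 511, 528, 561 and 541 FPKM in BPH-1, at 461, 381, 496 and 400.4 in DU145, and at 289, 290.0, 351 and 361 in PC3. It led the order of the 10 genes in each line, ahead of S100A9 in BPH-1, whose libraries overlapped with it, and ahead of S100A6 in both cancer lines without overlap. That order used the exon lengths of the deposited values, and with merged exon lengths S100A6 came first in PC3 (405 ± 96.1 against 323 ± 38.7 FPKM, SD, n = 4), with overlapping libraries. S100A11 fell 1.66-fold in PC3 against BPH-1 (−0.73, SE 0.11, adjusted p = 0.00022, limma). Upper-quartile scaling, which set PC3 higher as a whole, left −0.34 (adjusted p = 0.0854, limma). Between DU145 and BPH-1 the difference missed the threshold (−0.31, SE 0.14, adjusted p = 0.0723, limma) although the libraries did not overlap. It passed with a common FPKM sum (−0.56, adjusted p = 0.00614), with the GC trend divided out (−0.69, adjusted p = 0.000984), in 1 fit over the 3 lines (adjusted p = 0.0468) and without DU145 replicate 3 (−0.37, adjusted p = 0.0318, limma throughout). PC3 was 1.35-fold below DU145 (−0.43, SE 0.15, adjusted p = 0.0402, limma), a call lost in 6 of the 8 fits that left out 1 library, with adjusted p up to 0.118.

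**Figure D3:**
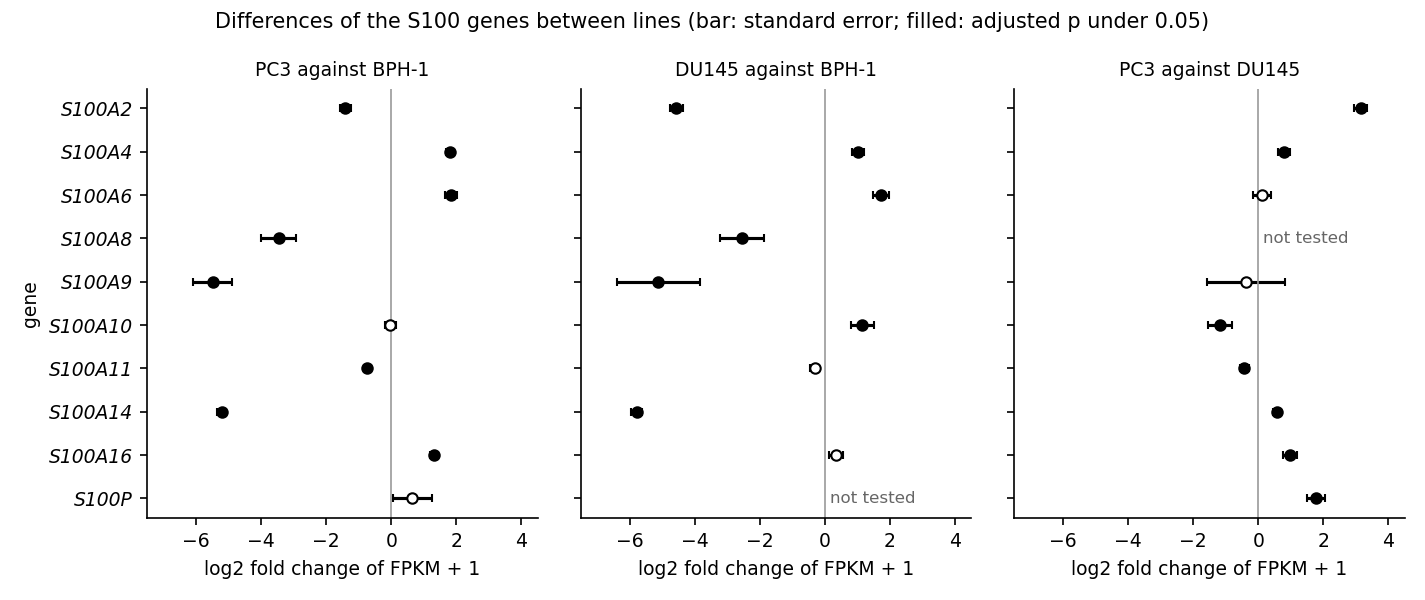
Log2 difference of FPKM + 1 on the horizontal axis for each S100 gene on the vertical axis in the 3 comparisons, with standard errors from limma on 4 libraries per line. Filled points have an adjusted p under 0.05. For PC3 against BPH-1, S100A9, S100A14 and S100A8 lie farthest below 0. For DU145 against BPH-1 these are S100A14, S100A9 and S100A2. S100A2 lies farthest above 0 for PC3 against DU145.

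Of the 10 genes, 3 were higher and 5 lower in PC3 than in BPH-1. Across all 16346 genes tested there, 67.6% passed the test (27.2% higher and 40.5% lower), so a call alone sets these genes apart little, and the size of the differences is the measurement to read. In DU145 against BPH-1, 3 of the 9 genes tested were higher and 4 lower, with 62.6% of 17072 genes passing (30.3% higher and 32.3% lower). In PC3 against DU145, 5 of 9 were higher and 2 lower, with 48.2% of 16209 genes passing (20.0% higher and 28.3% lower). Libraries of PC3 and BPH-1 did not overlap for 3 genes that were higher in PC3 and 5 that were lower, where 64.5% of all genes tested did not overlap (25.8% higher and 38.7% lower). For DU145 and BPH-1 these numbers were 3 and 5, beside 59.4% of all genes (28.8% higher and 30.6% lower), and for PC3 and DU145 they were 5 and 2, beside 46.5% (19.1% higher and 27.4% lower). The median log2 difference over the S100 genes tested was −0.38, −0.31 and 0.57 in these 3 comparisons, beside −0.13, −0.03 and −0.05 over all genes tested. Some genes passed the filter on low reads through 1 line alone, so their calls are not independent of the filter. These were S100A8 through BPH-1 in both comparisons with that line, S100A9 through BPH-1 against DU145, and S100P through PC3 against DU145. S100P against BPH-1 and S100A9 in PC3 against DU145 also passed the filter through PC3 alone, but were not called. The comparisons share libraries and are not independent of each other.

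The 11 other S100 genes were mostly low. S100B, S100G, S100Z and S100A7L2 had no read in any library, S100A1 had 5 to 10 reads in 3 DU145 libraries only, and S100A5 had 0 to 9 reads. Of the 5 tested against BPH-1, S100A3 was higher in both cancer lines and S100A7 and S100A12, which passed the filter through BPH-1 alone, were lower in both, while S100A13 passed in neither (means within 1.52-fold). S100A7A fell in DU145 (adjusted p = 0.0455, limma) and just missed the threshold in PC3 (adjusted p = 0.0502, limma). It too passed the filter through BPH-1 alone, so its lower level followed from the filter. Between PC3 and DU145 only S100A3 and S100A13 could be tested, and neither passed (adjusted p = 0.819 and 0.158, limma).

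**Figure D4:**
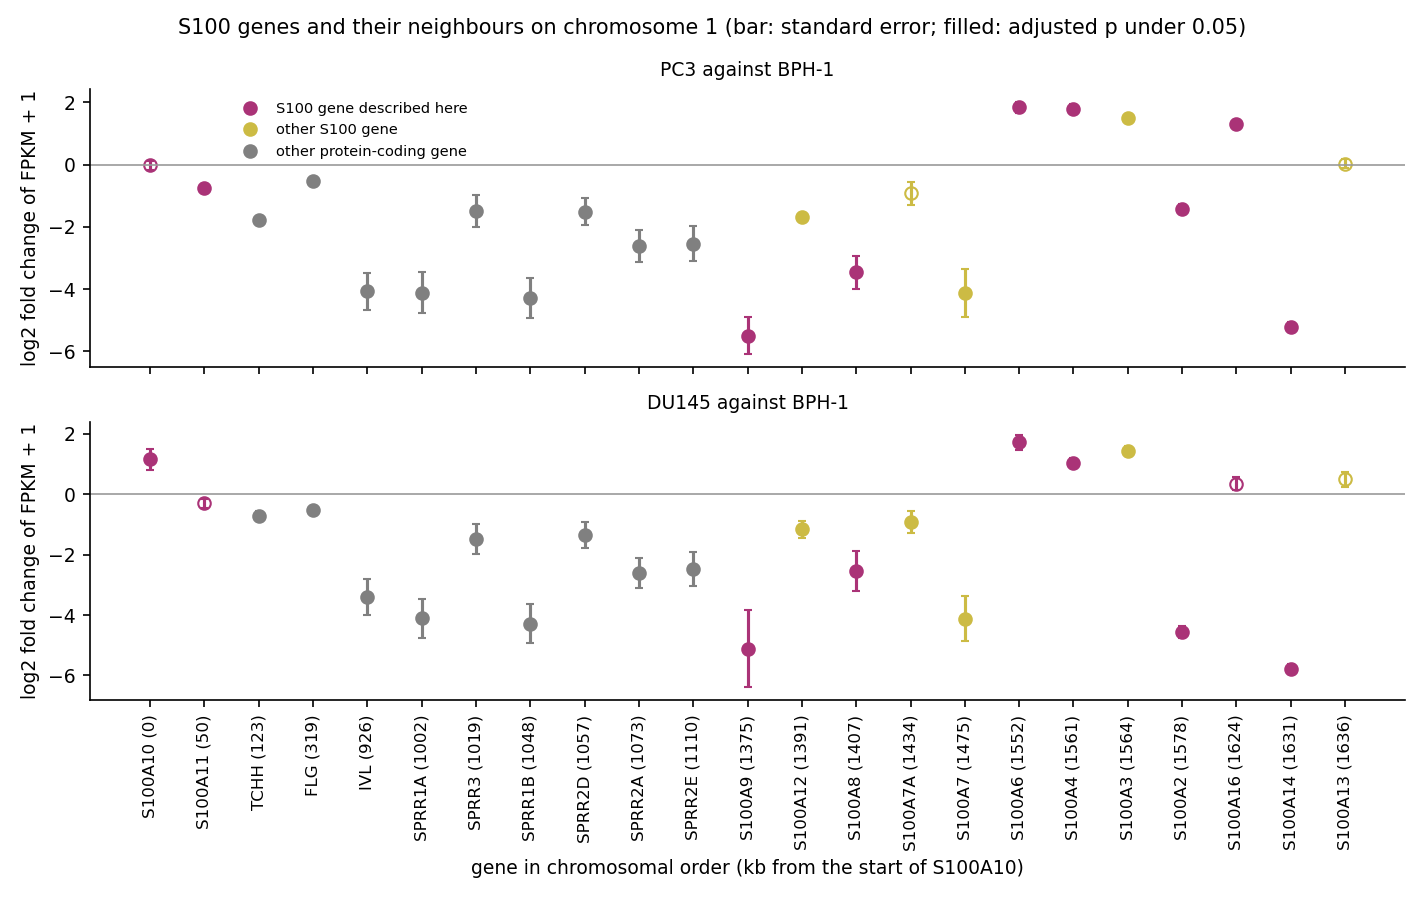
Log2 difference of FPKM + 1 against BPH-1 on the vertical axis for the tested S100 genes and other tested genes of the chromosome 1 region, in chromosomal order on the horizontal axis with the distance from the start of S100A10 in kb (upper panel PC3, lower panel DU145; bars are standard errors, filled points have an adjusted p under 0.05). Genes from TCHH to S100A7 lay below 0 in both panels, whereas S100A6, S100A4 and S100A3 lay above 0 and S100A2 and S100A14 below it. Of the genes from TCHH to S100A7, all but S100A9 against PC3, and all but TCHH and IVL against DU145, passed the filter through BPH-1 alone. For those genes the direction followed from the filter.

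Among 16 partners and receptors of S100 proteins, 2 were higher and 11 lower in PC3 than in BPH-1, 4 higher and 7 lower in DU145 than in BPH-1, and 3 higher and 6 lower in PC3 than in DU145. These 13, 11 and 9 of 16 stand beside 67.6%, 62.6% and 48.2% of all genes tested. ANXA6, a membrane-binding annexin, rose from a mean of 2.66 FPKM in BPH-1 to 23.0 in DU145 and 66.5 in PC3 (log2 differences 2.68 and 4.21, adjusted p = 4.38e-06 and 8.92e-09, limma). ANXA1, the S100A11 partner, fell from 80.9 FPKM to 28.7 in DU145 and 4.98 in PC3 (−1.54 and −3.83, adjusted p = 0.000567 and 9.36e-07, limma). The scaffold IQGAP1 fell in both lines (−3.14 in PC3 and −2.55 in DU145, adjusted p = 0.000149 and 0.00872, limma). AHNAK fell in DU145 from 82.6 to 6.03 FPKM (adjusted p = 4.39e-07, limma), and its PC3 libraries scattered from 6.30 to 103 FPKM. The receptors AGER and TLR4 were low throughout, at 0.315 to 1.94 and 0 to 0.486 FPKM.

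Across the 12 libraries, the genes whose log2 levels followed each S100 gene most closely were ranked among 12906 genes as a description, with lines as the main source of the correlation. For S100A14 they included C6orf132 (r = 0.996) and KDF1, both far higher in BPH-1 than in the cancer lines. S100A8 and S100A9 were each the first match of the other (r = 0.96), followed by WFDC2 and SYK for S100A8 and by CTSS and LCP1 for S100A9. ZP3 led for S100A4 (r = 0.99), FKBP8 for S100A6 (r = 0.99), ARID3A for S100A11 (r = 0.99) and BTN2A2 for S100A10 (r = 0.95).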

How the data were processed

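Total RNA of the 12 libraries was extracted with TRIzol and prepared with a NEBNext Ultra kit. The submitters' processing notes name CASAVA 1.8, HISAT2 2.1.0, edgeR and GRCh38, without their roles, and the counter and strand setting are not given in the sources used here. The authors deposited FPKM per gene in a table whose header names no unit. The unit was taken from the values, since 92.1 to 93.6% of low values were whole reads (within 0.02) when FPKM was multiplied by the sum of distinct exon lengths of GENCODE and by a depth fitted per library. FPKM was tested as log2(FPKM + 1), which understates changes of low genes, with limma 3.58.1 in R 4.3.3 (intensity trend, the 2 lines compared only) on genes with at least 10 reads at median depth in 4 libraries and 15 in all. Genes with a Benjamini-Hochberg adjusted p under 0.05 were called, and the steps were tested on simulated data. With 4 libraries against 4 the smallest two-sided exact permutation p is 0.0286. The S100 genes and all gene lists were chosen with earlier results of these data known. All 10 genes were named, with every other S100 gene, the genes of most similar level over the libraries, and from the partner and neighbour lists the 3 largest called differences per comparison (ANXA2 always, and the 3 neighbours of highest mean). PTPRC, AGER, TCHH, FLG and other single genes were named after their values were seen. Alternatives were other filters, pseudocounts, scalings, a GC correction, voom on recovered reads, a replicate block and leaving out libraries. Promoter windows of all 10 genes came from RefSeq. Some genes that these rules name are not reported here.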

Additional observations from a re-analysis of the deposited data

Results flagged for a closer look

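S100A14 in PC3 replicate 3 stood at 1.65 FPKM (62 reads) while the other 3 PC3 libraries lay at 1.05, a gap that covered nearly the whole range of the line. It was the only such library in 29 groups of 4 libraries examined, where chance gives about 1 in 20. The difference from BPH-1 differed between the cancer lines for 7 of the 9 genes tested, where 48.2% of all 16209 genes tested passed. It was measured as the log2 difference between PC3 and DU145 (limma, adjusted p in parentheses). S100A2 differed by 3.14 (4.07e-06), S100P by 1.78 (0.000565), S100A16 by 0.97 (0.00445), S100A4 by 0.78 (0.0068) and S100A14 by 0.57 (0.00295), each higher in PC3. S100A10 differed by −1.18 (0.029) and S100A11 by −0.43 (0.0402), each lower in PC3, and both of these calls were lost under several other settings. S100P passed the filter on low reads through PC3 alone and was too low to be tested in DU145 against BPH-1.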

How the results depend on the processing

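Of the values of single S100 genes under other settings, 525 kept direction and side of the threshold, 26 lost the call, 7 gained it and 14 changed sign. Sign changes touched values that had not passed the test. S100A10 in PC3 against BPH-1 was 0.11 with median-of-ratios and 0.36 with upper-quartile scaling and ran from −0.153 to 0.062 with 1 library left out. S100A16 in DU145 against BPH-1 was −0.19 with the GC trend divided out. S100A6 in PC3 against DU145 ran from −0.065 to 0.33 with 1 library left out and was −0.077 without DU145 replicates 1 and 2, chosen after the values were seen. S100A9 in PC3 against DU145 was 0.97 with a pseudocount of 0.1, 1.29 with voom, −1.21 to 0.47 with 1 library left out and 2.13 without DU145 replicates 1 and 2, which held all DU145 reads of this gene, so that the direction was fixed by leaving them out. S100A11 in PC3 against DU145 also lost its call with no filter, median-of-ratios or upper-quartile scaling, the GC correction or the replicate block (adjusted p = 0.0546, 0.203, 0.277, 0.204 and 0.113, limma). Requiring a log2 difference over 1 left 4424 genes for PC3 and 4895 for DU145 when each was set against BPH-1, and 3165 between the cancer lines, with 3 of the S100 genes in the last. Replicate numbers did not pair the libraries (correlations of deviations −0.67 to 0.54 in PC3 against DU145), and with the replicate block 10711, 10156 and 6654 genes passed, with 8, 7 and 6 S100 genes. Upper-quartile scaling turned the share of higher calls in PC3 against BPH-1 from 40.2 to 54.8% and the median from −0.13 to 0.09, whereas a common FPKM sum moved it to −0.28. The causes were not tested. Depth limited S100P in DU145 and S100A8 in PC3.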

Other observations

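In DU145, S100A2, S100A4, S100A6, S100A11 and S100A16 each stood higher in replicates 1 and 3 than in replicates 2 and 4, a split noticed after the values were seen and not tested. S100A16, for one, was at 66.9 and 70.7 FPKM against 38.6 and 45.8, and IQGAP1 went the opposite way, at 2.68 and 0.906 against 19.5 and 18.5 FPKM. S100A10 and S100A14 did not follow this split. The libraries stood apart in the same way over all genes: a chi-square per gene between libraries was 37.0 for replicates 1 and 3 and 23.7 for 2 and 4, against 104.4 to 215 for the other 4 pairs. In PC3, S100A9 was read in each library (19 to 34 reads) while S100A8 had no read, although BPH-1 held 18.8 to 22.1 times more FPKM of S100A9 than of S100A8.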
